A study of Homo sapiens with 5 samples.

Results

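The genes described here encode the subunits of the hypoxia-inducible factors (HIF) and the enzymes and ligase component that make those subunits sensitive to oxygen. They are 8 of the 65217 human gene identifiers in the deposited gene table: HIF1A, EPAS1, ARNT, EGLN1, EGLN2, EGLN3, HIF1AN and VHL. They were taken by name, with earlier results of these data known. RNA came from REH, an established human precursor B cell leukaemia line with the ETV6-RUNX1 (TEL-AML1) fusion, that had been transplanted into NSG mice (NOD.Cg-Prkdcscid Il2rgtm1Wjl/SzJ) of 6 to 10 weeks of age. Blasts from the leptomeninges of the brain gave 3 libraries and blasts from the spleen gave 2, each from the pooled RNA of 5 mice on a separate occasion, the remaining spleen pool having failed quality control per the labels. Blasts of both sites were purified on a Ficoll gradient. At both sites the cells are of 1 line cultured at 21% oxygen before transplantation, in hosts that lack T, B and NK cells of their own. The comparison asks what sets blasts of the central nervous system apart from blasts of a peripheral site.

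A HIF transcription factor is a pair of an alpha subunit (HIF-1 alpha, from HIF1A, or HIF-2 alpha, from EPAS1) and the constitutive beta subunit from ARNT. In the presence of oxygen, prolyl hydroxylases encoded by EGLN1, EGLN2 and EGLN3 mark the alpha subunits, and the VHL protein, the substrate-binding part of a ubiquitin ligase, then directs them to degradation. HIF1AN encodes an asparaginyl hydroxylase (FIH) that blocks the binding of coactivators. This control acts on protein, which was not measured here, and the values below are RNA levels. EGLN1 and EGLN3 are also known as HIF target genes, whereas EGLN2 is not usually induced by hypoxia.

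Library totals in the gene table lay between 38387991 and 48764202 estimated counts. Mouse transcripts took 5.70%, 2.58% and 2.64% of the estimated counts in brain replicates 1 to 3 and 6.33% and 8.87% in spleen replicates 1 and 2. The summed level of 10 markers of precursor B cells was 5744 to 6104 counts per 1000000 (CPM) in brain and 6006 to 6093 CPM in spleen, and among these markers VPREB1 had no count in any library. Members of this list moved in both directions, RAG1 being higher in brain (log2 fold change 0.55, edgeR adjusted p = 0.0137) and CD79A lower (-0.61, adjusted p = 0.0166). Of the 8 genes, 7 passed the filter on low counts and were tested by the quasi-likelihood method of edgeR. P-values were adjusted by Benjamini-Hochberg over all 20419 genes tested, and 0.05 was the threshold.

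In leukaemia cells from brain, 3 of these genes were higher than in spleen: EPAS1, by 3.15-fold, EGLN1, by 2.05-fold, and HIF1A, by 1.51-fold. None was lower past the threshold with edgeR. EGLN2 stood 0.751-fold as high in brain and had an adjusted p of 0.0561, and by DESeq2's Wald test, run as an alternative, it was called lower. By limma on log2(TPM + 1), another alternative, none of the 3 was called (limma adjusted p = 0.193 for EPAS1, 0.0698 for EGLN1 and 0.285 for HIF1A). With the mouse share of each library as a covariate in edgeR, EGLN1 was called (adjusted p = 0.0456), and EPAS1 (0.137) and HIF1A (0.284) were not. That fit called 114 genes higher and 11 lower in all, against 1228 and 714 in the main fit. ARNT, HIF1AN and VHL differed by less than their standard errors, and EGLN3 was not detectable at this depth. Over all genes tested, 6.01% were higher and 3.5% lower in brain (9.51% in either direction), and the median log2 fold change was 0.0066. The libraries are bulk RNA of a cell population, in which a change in the share of cells that express a gene and a change in RNA per cell cannot be told apart.

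**Figure D1:**
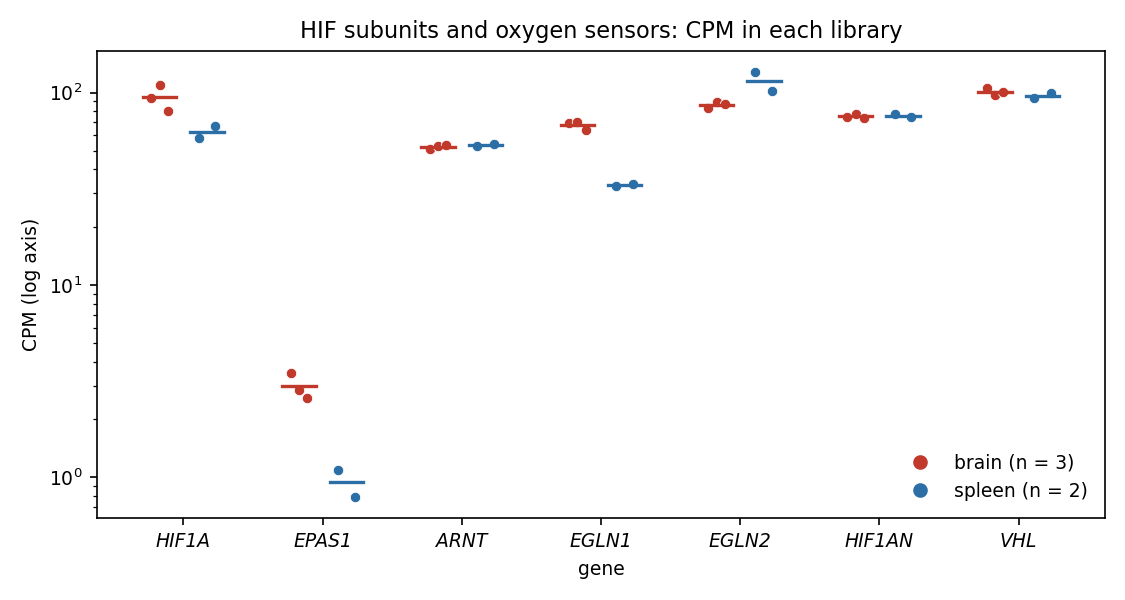
CPM (log axis) of 7 HIF pathway genes in each library, with brain libraries in red, spleen libraries in blue, points for libraries and bars for means. EPAS1, EGLN1 and HIF1A lay higher in every brain library than in either spleen library, EGLN2 lay lower, and EGLN3, with 1 count in all, is not drawn.

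HIF1A (ENSG00000100644, GRCh38 chromosome 14, 61695513 to 61748259, plus strand) encodes the alpha subunit of HIF-1. It stood at 93.9, 109.5 and 80.5 CPM in brain replicates 1 to 3, against 57.8 and 67.4 CPM in spleen replicates 1 and 2. The groups did not overlap, and brain replicate 2 was the highest library. An absence of overlap with brain above spleen was found in 23.3% of all genes tested. The means were 94.6 ± 14.5 CPM (SD, n = 3) in brain and 62.6 ± 6.81 CPM (SD, n = 2) in spleen. The fitted log2 fold change was 0.60 (SE 0.141, 95% interval 0.28 to 0.92, edgeR adjusted p = 0.0334). This call rested on single libraries. Leaving out brain replicate 1 gave 0.60 (edgeR adjusted p = 0.108), leaving out brain replicate 2 gave 0.48 (0.0881) and leaving out spleen replicate 1 gave 0.48 (0.150), each no longer past the threshold.

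EPAS1 (ENSG00000116016, chromosome 2, 46293667 to 46386697, plus strand), which encodes the alpha subunit of HIF-2 and is best known from endothelial cells, was the alpha subunit gene with the larger difference but a far lower level. Its reads numbered 136, 141 and 116 estimated counts in the brain libraries, against 48 and 40 in the spleen libraries. In CPM these were 3.49, 2.85 and 2.58 in brain, against 1.09 and 0.794 in spleen. Every brain library was above both spleen libraries. The means were 2.97 ± 0.465 CPM (SD, n = 3) in brain and 0.944 ± 0.212 CPM (SD, n = 2) in spleen. The fitted log2 fold change was 1.66 (SE 0.267, 95% interval 1.05 to 2.26, edgeR adjusted p = 0.00814). The call held without any 1 of the 5 libraries, with log2 fold changes between 1.43 and 1.89.

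Of 6 listed human endothelial markers, PECAM1 was higher in brain (log2 fold change 3.23, edgeR adjusted p = 0.000601). The summed level of the list was 12.2 to 19.2 CPM in brain and 2.86 to 3.03 CPM in spleen, and most of it was PECAM1, at 12.7, 17.4 and 10.2 CPM in brain against 1.78 and 1.09 CPM in spleen. PECAM1 is also made by leukocytes. The defining endothelial genes CDH5, KDR and TEK were at or near 0 in all 5 libraries, the highest value being 0.133 CPM for CDH5 in brain replicate 3, and VWF reached at most 0.384 CPM. CLDN5 stood at 1.46, 1.37 and 1.71 CPM in brain, against 1.19 and 1.51 CPM in spleen, with overlapping libraries (edgeR adjusted p = 0.741). Markers of pericytes and fibroblasts summed to 19.3 to 26.0 CPM in brain and 19.2 to 21.1 CPM in spleen, most of it PDGFRB. Those of myeloid cells summed to 3.74 to 7.60 CPM in brain and 3.55 to 4.50 CPM in spleen, with CD68 as the 1 member past the threshold (log2 fold change 1.98, edgeR adjusted p = 0.0335). Neural markers summed to 18.6 to 20.2 CPM in brain and 15.3 to 17.9 CPM in spleen, most of it MBP, with SNAP25 at 0. T cell markers summed to at most 0.743 CPM and erythroid markers to at most 0.357 CPM in any library, with CD3D at 0. The mouse share was higher in both spleen libraries, where EPAS1 was lower. The human cells were of 1 line in mouse hosts, so these are reads of REH cells or mouse reads assigned to human genes. The part of PECAM1- or CD68-expressing cells in the EPAS1 difference was not tested, nor was that of misassigned mouse reads.

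ARNT (ENSG00000143437, chromosome 1, 150809713 to 150876708, minus strand) encodes the beta subunit shared by both factors. It stood at 50.9, 52.7 and 53.2 CPM in the brain libraries, against 52.9 and 53.9 CPM in the spleen libraries. The groups overlapped, and the log2 fold change was -0.030 (SE 0.0899, edgeR adjusted p = 0.881). Its 95% interval, -0.23 to 0.17, leaves room for a fold between 0.850 and 1.13. The CPM ratio of HIF1A to ARNT was 1.84, 2.08 and 1.51 in brain, against 1.09 and 1.25 in spleen. An exact two-sided permutation test of this ratio gave p = 0.2, the smallest that 3 libraries against 2 can give. The ratio restates the CPM of both genes, so neither its separation nor its p is a further result.

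**Figure D2:**
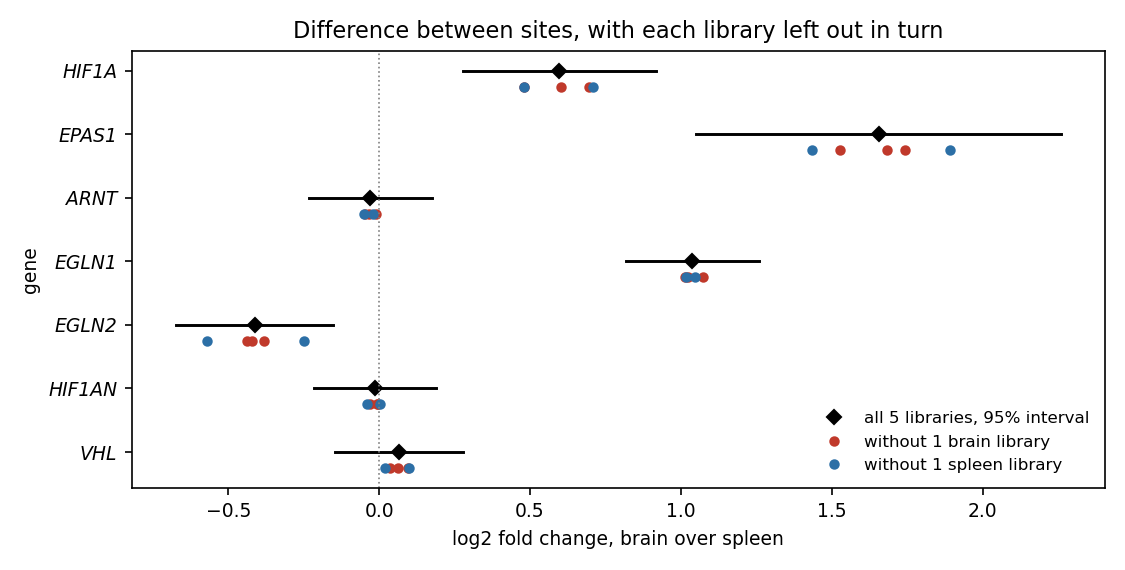
Log2 fold change of brain over spleen for 7 genes. Diamonds and lines give the fit of all 5 libraries with its 95% interval, and points give the fits with 1 brain library (red) or 1 spleen library (blue) left out. EGLN1 kept values of 1.01 to 1.07 whichever library was left out, whereas EGLN2 ranged from -0.57 to -0.25.

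EGLN1 (ENSG00000135766, chromosome 1, 231363751 to 231422287, minus strand) encodes PHD2, the prolyl hydroxylase with the largest part in HIF-1 alpha turnover in most cells. It stood at 69.3, 70.4 and 64.2 CPM in brain, against 32.8 and 33.4 CPM in spleen. Libraries of 1 site lay close together and the sites lay far apart. The means were 68.0 ± 3.33 CPM (SD, n = 3) in brain and 33.1 ± 0.380 CPM (SD, n = 2) in spleen. The fitted log2 fold change was 1.04 (SE 0.0971, 95% interval 0.82 to 1.26, edgeR adjusted p = 0.000601). By p it ranked 75 among all genes tested, while EPAS1 ranked 413 and HIF1A 1388. The pseudogene EGLN1P1, with which EGLN1 can share reads, stood at 0.487, 0.263 and 0.356 CPM in brain, against 0.0228 and 0.139 CPM in spleen, a small amount beside EGLN1 in each library.

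EGLN2 (ENSG00000269858, chromosome 19, 40798996 to 40808434, plus strand) encodes PHD1 and had the highest level in transcripts per 1000000 (TPM), a length-scaled unit, of the 3 prolyl hydroxylase genes in every library. It stood at 82.8, 89.6 and 87.1 CPM in brain, against 128.1 and 102.2 CPM in spleen. Both spleen libraries were above all brain libraries, and spleen replicate 1 was well above spleen replicate 2. An absence of overlap in this direction was found in 19.5% of genes. The means were 86.5 ± 3.41 CPM (SD, n = 3) in brain and 115.2 ± 18.3 CPM (SD, n = 2) in spleen. The fitted log2 fold change was -0.41 (SE 0.115, 95% interval -0.67 to -0.15, edgeR adjusted p = 0.0561). Without spleen replicate 2 it was past the threshold (log2 fold change -0.57, edgeR adjusted p = 0.0198), and without spleen replicate 1 it was not (-0.25, edgeR adjusted p = 0.276). The readthrough gene RAB4B-EGLN2 had 3 to 17 counts in brain and 4 and 21 in spleen, so little of the EGLN2 signal was assigned to it. For its neighbour RAB4B the log2 difference was -0.15, with edgeR adjusted p = 0.472.

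The ratio of EGLN1 to EGLN2 did not overlap between sites. This follows from EGLN1 lying higher and EGLN2 lower in every brain library, so neither the separation nor its permutation p is a further result. Within each library the ratio of EGLN1 to EGLN2 in TPM was 0.404, 0.396 and 0.355 in brain, against 0.115 and 0.182 in spleen. No brain value came near a spleen value. The mean log2 ratio was 1.41 higher in brain, and an exact two-sided permutation test gave p = 0.2, again the smallest possible with these numbers. Because it is taken within a library, the ratio does not depend on the scaling between libraries.

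EGLN3 (ENSG00000129521, chromosome 14, 33924227 to 34462774, minus strand) encodes PHD3, which is strongly induced by hypoxia in many cell types. It had 0, 0 and 0 estimated counts in the brain libraries, against 1 and 0 in the spleen libraries. A count of 0 allows up to 3 counts, or 0.0617 to 0.0782 CPM in the brain libraries and 0.0615 CPM in spleen replicate 2, a limit that covers counting error only. It does not apply to spleen replicate 1, where the 1 count was 0.0228 CPM. Of its 11 transcripts in the files, 1 held any estimated count. The antisense gene EGLN3-AS1 had 0 counts in all 5 libraries. EGLN3 was thus not detectable at either site, and no fold can be given.

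HIF1AN (ENSG00000166135, chromosome 10, 100529072 to 100559998, plus strand) encodes the asparaginyl hydroxylase FIH. It stood at 74.7, 77.1 and 74.0 CPM in brain, against 77.3 and 74.7 CPM in spleen. The groups overlapped, with a log2 fold change of -0.013 (SE 0.0894, 95% interval -0.22 to 0.19, edgeR adjusted p = 0.950). VHL (ENSG00000134086, chromosome 3, 10141778 to 10153667, plus strand) stood at 105.3, 97.0 and 100.7 CPM in brain, against 94.0 and 99.0 CPM in spleen. Its groups also overlapped, with a log2 fold change of 0.065 (SE 0.0936, 95% interval -0.15 to 0.28, edgeR adjusted p = 0.729). The intervals of these genes leave room for a fold of 0.861 to 1.14 for HIF1AN and 0.903 to 1.21 for VHL.

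Compared per length, as TPM summed over the transcripts of each gene, the order of levels in brain was EGLN2 (62.6 ± 3.71 TPM, SD, n = 3), VHL (59.1 ± 0.921), HIF1A (52.4 ± 9.85), EGLN1 (24.1 ± 1.504), ARNT (20.1 ± 0.608), HIF1AN (17.8 ± 2.33), EPAS1 (0.930 ± 0.165) and EGLN3 (listed at 0). In brain the libraries of EGLN2, VHL and HIF1A overlapped, as did those of ARNT and HIF1AN, while EGLN1 lay above both of these in every library. In spleen the order was EGLN2 (84.9 ± 6.42 TPM, SD, n = 2), VHL (57.4 ± 9.56), HIF1A (37.0 ± 9.87), ARNT (20.3 ± 4.25), HIF1AN (16.5 ± 2.54), EGLN1 (12.5 ± 3.02), EPAS1 (0.437 ± 0.264) and EGLN3 (0.0055 ± 0.0078). In spleen only the libraries of ARNT and HIF1AN overlapped among neighbours in this order. EGLN1 was thus above ARNT and HIF1AN in every brain library and below them in both spleen libraries. This held also on the MANE Select (reference) transcript of each gene alone. There the brain means of EGLN1 (12.0 TPM), HIF1A (11.6) and VHL (11.1) lay close together, so their order depends on the transcripts counted. Summed TPM gives short transcripts much weight. In brain replicate 1 EGLN1-202, of 614 bases, held 48.8% of EGLN1 TPM on 230.5 estimated counts, against 2476 on EGLN1-201. HIF1A exceeded EPAS1 in all libraries, by 45.6, 66.2 and 59.2 times in brain and by 48.1 and 175.8 times in spleen on the TPM scale, and these ratios overlapped between sites. In spleen replicate 1, 33.8% of EPAS1 TPM lay on the full-length coding transcript, against 72.8% to 83.8% in the brain libraries and 78.5% in spleen replicate 2. That transcript had 37.4 estimated counts in spleen replicate 1, and each other EPAS1 transcript had at most 6.85 there. On the CPM scale, which is not per length, the HIF1A to EPAS1 ratio was 27.0, 38.4 and 31.2 in brain, against 52.8 and 84.95 in spleen, with all brain libraries below both spleen libraries (exact two-sided permutation p = 0.2, the smallest possible). This ratio restates the CPM of both genes given above, so neither its separation nor its p is a further result.

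Upstream sequence of the 4 genes whose libraries did not overlap between sites is given to show whether the core of a hypoxia response element lies next to their starts. RefSeq promoter windows (GRCh38.p14) of 300 bases were found for 7 of the 8 genes, HIF1A and EGLN2 having a pair of windows each, and VHL none. The letters ACGTG and GCGTG were searched on both strands. Of 35116 promoter windows of this length, 48.45% held at least 1 match. EGLN1, EPAS1, the first HIF1A window and the first EGLN2 window held matches, and ARNT, HIF1AN, EGLN3 and the second windows of HIF1A and EGLN2 held none. The windows with matches were 73% to 80% G or C, and those of ARNT, HIF1AN and EGLN3 58% to 66.7%. The second windows, without a match, were 31.7% (HIF1A) and 79.3% (EGLN2). How often windows of like base content hold a match was not computed. The 250 bases before each start follow, 5′ to 3′ on the strand of the gene, with matches in capitals: EGLN1 at chr1:231422288-231422537 (minus), EPAS1 at chr2:46297157-46297406, HIF1A at chr14:61695263-61695512 and EGLN2 at chr19:40798941-40799190 (all plus).
EGLN1: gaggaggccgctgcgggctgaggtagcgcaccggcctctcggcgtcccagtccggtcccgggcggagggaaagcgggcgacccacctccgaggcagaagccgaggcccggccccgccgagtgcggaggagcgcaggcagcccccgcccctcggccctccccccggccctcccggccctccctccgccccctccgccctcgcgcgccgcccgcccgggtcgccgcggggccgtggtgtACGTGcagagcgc
EPAS1: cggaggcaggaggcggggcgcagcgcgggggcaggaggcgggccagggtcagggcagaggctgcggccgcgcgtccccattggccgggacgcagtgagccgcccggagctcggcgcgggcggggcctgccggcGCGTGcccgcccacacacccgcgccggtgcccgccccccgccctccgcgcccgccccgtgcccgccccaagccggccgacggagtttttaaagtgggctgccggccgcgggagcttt
HIF1A: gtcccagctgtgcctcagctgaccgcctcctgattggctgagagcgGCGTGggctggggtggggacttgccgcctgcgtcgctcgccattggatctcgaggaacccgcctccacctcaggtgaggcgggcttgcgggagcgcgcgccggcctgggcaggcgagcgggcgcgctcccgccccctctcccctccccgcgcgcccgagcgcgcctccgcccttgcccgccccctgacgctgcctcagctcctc
EGLN2: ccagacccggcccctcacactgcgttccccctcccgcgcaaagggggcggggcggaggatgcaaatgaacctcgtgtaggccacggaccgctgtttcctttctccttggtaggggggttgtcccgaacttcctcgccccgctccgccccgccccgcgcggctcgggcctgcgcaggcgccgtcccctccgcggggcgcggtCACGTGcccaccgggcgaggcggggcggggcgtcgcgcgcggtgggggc
EGLN1, which was 2.05-fold higher in brain, held 1 ACGTG, close to its start. EPAS1 and HIF1A each held 1 GCGTG. EGLN2, the gene that lay lower in brain, held the palindrome CACGTG, which counts as 2 overlapping matches to ACGTG, 1 on each strand. Such letters are common in promoters, and a match describes the window and says nothing of binding. The second HIF1A window begins at 61697462, and covers the shared start of HIF1A-204 and HIF1A-212. Both transcripts are named for this start, after their values were seen. HIF1A-204 reached at most 0.168 TPM in any library. HIF1A-212, which has no annotated coding sequence, stood at 0.221, 0.650 and 0.239 TPM in brain, against 0 and 0.132 TPM in spleen, and its brain libraries were above both spleen libraries. How often this held over all transcripts was not computed.

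Transcript estimates were then examined, with 73 transcripts of the 8 genes in the files. No transcript of any human gene passed the edgeR test at this level (0 of 75118 transcripts, 0% in either direction), although 6064 had an unadjusted p under 0.05, and limma on log2 TPM also called 0. On simulated data the transcript test recovered 4% of transcripts changed by 2 on the log2 scale, so it had little power, and the values that follow are descriptions. The share of all transcripts without overlap between sites was not computed. Among genes tested it was 23.3% with brain above and 19.5% with brain below, so an absence of overlap below is not read as a result. EGLN1 was split between its MANE Select transcript EGLN1-201, at 12.1, 12.6 and 11.3 TPM in brain against 5.37 and 6.27 TPM in spleen, and EGLN1-202, a short transcript with no annotated coding sequence, at 11.5, 13.2 and 11.6 TPM in brain against 4.95 and 8.31 TPM in spleen. Both lay higher in all brain libraries, and EGLN1-201 held 49.8% of the gene's TPM in brain and 47.5% in spleen on average. The files hold 2 of the 7 EGLN1 transcripts in GENCODE 44, so this split and the summed TPM of EGLN1 rest on those alone.

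HIF1A was spread over 3 main transcripts. The MANE Select transcript HIF1A-202 stood at 11.7, 13.8 and 9.31 TPM in brain, against 6.19 and 7.07 TPM in spleen. HIF1A-203, which differs from it by 3 bases and a shorter first exon, stood at 18.1, 21.1 and 16.0 TPM in brain, against 10.7 and 16.1 TPM in spleen. HIF1A-211, a short transcript of 559 bases with no annotated coding sequence, took 32.4% of the gene's TPM in brain and 32.7% in spleen. HIF1A-202 and HIF1A-211 were without overlap between sites and HIF1A-203 overlapped. EPAS1 reads lay mainly on the full-length coding transcript EPAS1-201, at 0.904, 0.764 and 0.549 TPM in brain against 0.211 and 0.196 TPM in spleen, with no overlap. EGLN2 was mostly EGLN2-201, at 45.2, 49.0 and 49.2 TPM in brain against 62.3 and 58.1 TPM in spleen, and here too the sites did not overlap.

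**Figure D3:**
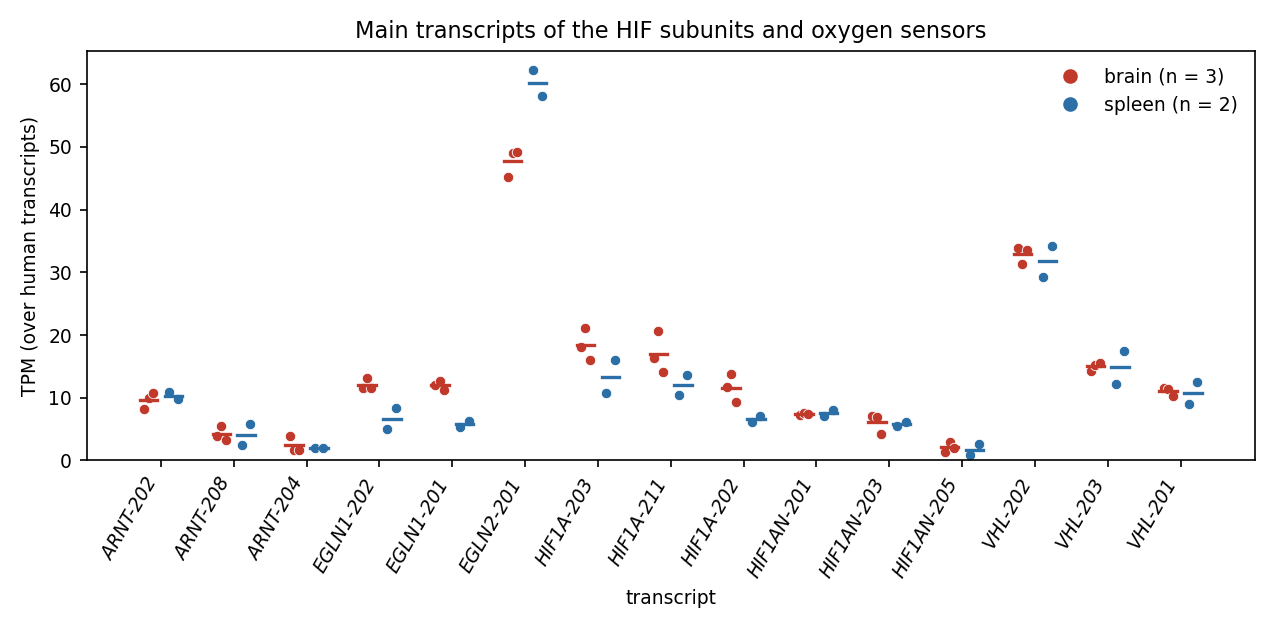
TPM over human transcripts for the transcripts that held at least 10% of their gene's TPM (EPAS1, under 1 TPM, not drawn), with brain libraries in red, spleen libraries in blue and bars for means. EGLN1-201 and EGLN1-202 lay higher in all brain libraries, EGLN2-201 lay lower, and the VHL transcripts overlapped between sites.

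For VHL and ARNT the estimates placed many reads on transcripts that skip an exon. VHL-202, which lacks exon 2 of the MANE Select transcript, stood at 33.9, 31.3 and 33.6 TPM in brain, against 29.3 and 34.2 TPM in spleen. VHL-201, which keeps the exon, stood at 11.6, 11.5 and 10.3 TPM in brain, against 9.07 and 12.5 TPM in spleen. VHL-202 took 55.7% of the gene's TPM in brain and 55.6% in spleen, and these shares overlapped between the libraries of the sites. The annotated ends of these transcripts differ, VHL-201 being 4414 bases long and VHL-202 2696, and the estimates hold 3 of the 6 VHL transcripts in GENCODE 44, so the part of the 3′ end in this split was not tested. ARNT-208, which lacks exon 5 of ARNT-202, took 20.9% of ARNT TPM in brain and 19.5% in spleen, while the MANE Select transcript ARNT-202 took 48.1% in brain and 52.4% in spleen. HIF1AN was mainly its MANE Select transcript HIF1AN-201, with 41.9% of its TPM in brain and 46.2% in spleen, and HIF1AN-203, annotated as subject to nonsense-mediated decay, with 33.6% in brain and 35.5% in spleen. None of these shares was without overlap between sites. Exon 2 of VHL encodes part of the domain that contacts hydroxylated HIF alpha, and it is shown with exon 5 of ARNT because these bases separate the transcripts. VHL exon 2 lies at chr3:10146514-10146636 (plus strand, 123 bases) and ARNT exon 5 at chr1:150842424-150842468 (minus strand, 45 bases) in GRCh38, both wholly coding and a multiple of 3 in length.
VHL exon 2: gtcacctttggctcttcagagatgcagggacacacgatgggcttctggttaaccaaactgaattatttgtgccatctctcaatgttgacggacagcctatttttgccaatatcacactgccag
ARNT exon 5: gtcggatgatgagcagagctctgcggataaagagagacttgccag
These sequences are those of the reference transcripts in GENCODE.

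The other genes of the pathway were grouped by role. Over all genes tested, 6.01% were higher and 3.5% lower in brain, and in lists this small a few calls are not read as a result about the list. Of 9 tested genes of the ubiquitin ligase that contains VHL and of its E2 and NEDD8 enzymes, 0 were higher, 1 was lower and 8 did not pass, with a median log2 fold change of -0.21. The lower gene was ELOB, encoding elongin B, which stood at 126.2, 144.8 and 170.6 CPM in brain, against 274.6 and 197.6 CPM in spleen (log2 fold change -0.68, SE 0.164, edgeR adjusted p = 0.0353). Its call was lost when brain replicate 1, brain replicate 2 or spleen replicate 1 was left out (edgeR adjusted p up to 0.167). With the occasion as a block, 4 of these genes were lower, where occasions are taken from the replicate numbers in the sample titles, which the column names of the spleen libraries do not follow. ELOC, which encodes elongin C, and the scaffold gene CUL2 stood at -0.31 and 0.034 on the log2 scale, neither past the threshold.

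Among genes of proteins that bind to HIF or act on its transcription, CITED2 stood at 29.4, 29.6 and 31.4 CPM in brain, against 20.1 and 16.9 CPM in spleen. CITED2 competes with HIF alpha for the coactivators p300 and CBP and is itself known to be induced by HIF. It was the 1 gene higher of 14 tested in that list (log2 fold change 0.71, SE 0.114, edgeR adjusted p = 0.00836), while 2 were lower, the helicase genes RUVBL1 and RUVBL2, and 11 did not pass. RUVBL1 and RUVBL2 stood at -0.42 and -0.55 on the log2 scale, and each lost its call in 4 of the 5 fits with a library left out (edgeR adjusted p up to 0.174). RUVBL2 also lost it with the occasion as a block (edgeR adjusted p = 0.0626). The median of the list was 0.074, where over all genes tested 6.01% were higher and 3.5% lower.

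Of 22 tested modifiers of HIF stability and of the prolyl hydroxylases, 3 were higher, 0 were lower and 19 did not pass, with a median of 0.00052. They were SIAH2, a ubiquitin ligase that degrades PHD3 and PHD1 (log2 fold change 0.55), LIMD1, a scaffold that brings PHD proteins and VHL together (0.40), and the deubiquitinase gene USP8 (0.40). These calls were weak: LIMD1 lost its call without any 1 of the 5 libraries, SIAH2 without any except spleen replicate 1, and USP8 without any except spleen replicate 2 (edgeR adjusted p up to 0.184). USP8 also lost it with the occasion as a block (edgeR adjusted p = 0.0592). Of 10 tested genes of mTOR input to HIF translation, 1 was higher, DDIT4, an inhibitor of mTOR induced by hypoxia, at 72.5, 93.7 and 68.1 CPM in brain against 19.4 and 18.2 CPM in spleen. DDIT4 is also among the HIF targets below. None of the other 9 passed, and the median of the list was 0.063. Beside the counts of both lists, 6.01% of all genes tested were higher and 3.5% lower. With limma on TPM, or with the mouse share as a covariate, DDIT4 was called, and ELOB, CITED2, RUVBL1, RUVBL2, SIAH2, LIMD1 and USP8 were not.

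**Figure D4:**
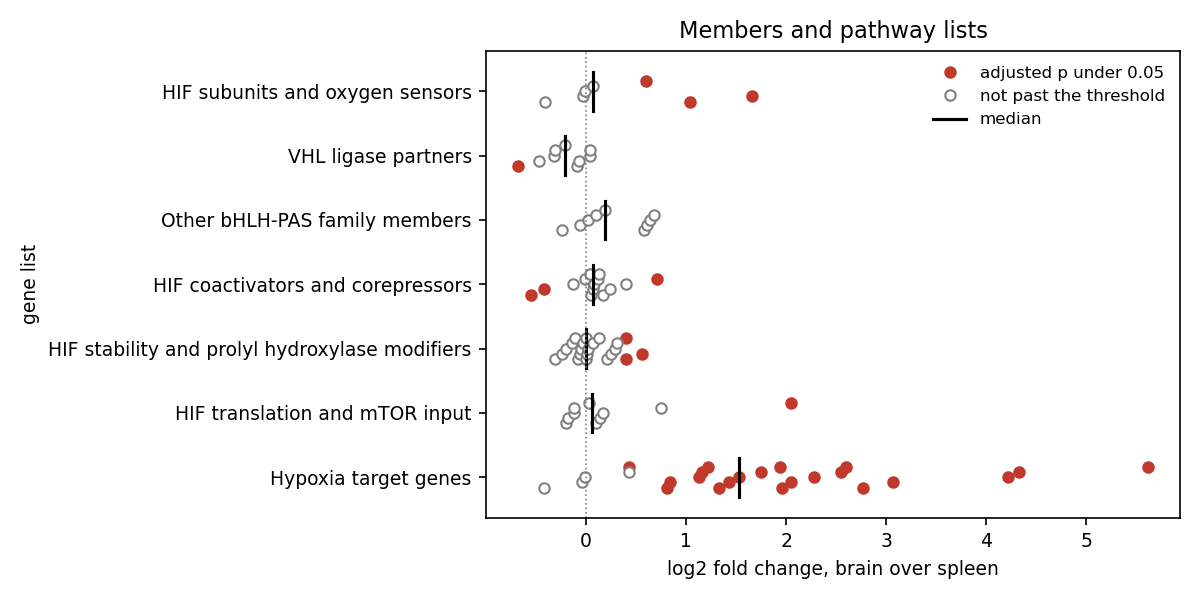
Log2 fold change of brain over spleen for the 7 tested HIF subunit and oxygen sensor genes and for 6 lists of related genes. Each point is a gene, red where the edgeR adjusted p was under 0.05, and black bars are medians, which lay between -0.21 and 0.19 in the lists other than the hypoxia targets, at 1.53.

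Of genes known as targets of HIF, 21 of 25 tested were higher, beside 6.01% of all genes, 0 were lower and 4 did not pass. Their median log2 fold change was 1.53. With the mouse share of each library as a covariate 11 of them were higher. Over all genes that fit called 114 higher, against 1228 in the main fit, so the 6.01% does not apply to it. These genes were listed with earlier results of these data known. The smallest difference that passed was that of INSIG2, at 0.43 on the log2 scale, and the largest, BHLHE40 and VEGFA, at 5.62 and 4.32, were larger than that of EPAS1, at 1.66. The targets that rose spanned 0.43 to 5.62, and the lower end of that range depends on the threshold. EGLN1 (1.04), HIF1A (0.60) and EPAS1 (1.66) all lay within it, so it does not set targets apart from other genes called higher. EGLN3, known as a target elsewhere, gave 1 count in all 5 libraries.

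Of the other genes of the bHLH-PAS family, to which HIF alpha subunits and ARNT belong, 9 were tested, 0 were higher or lower, and the median log2 fold change was 0.19. With the occasion as a block, or without brain replicate 3, 1 of them was higher. BMAL2, the most abundant, stood at 0.024 on the log2 scale (edgeR adjusted p = 0.936). HIF3A, encoding a further alpha subunit, had 23, 23 and 11 counts in brain, against 22 and 26 in spleen, and ARNT2, the paralogue of ARNT, had 3 to 5 counts in brain and 3 in each spleen library, under the filter on low counts. The antisense genes of HIF1A were low as well: HIF1A-AS1 had 9 to 12 counts in brain and 14 and 15 in spleen (edgeR adjusted p = 0.624), and HIF1A-AS3 had 2 to 6 counts in brain and 1 and 2 in spleen. The library kit marks strand, but since the strand setting of the counting is not given in the sources used here, reads of an antisense gene and of HIF1A cannot be told apart with certainty.

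Genes with a pattern most like that of 2 of these genes were sought among 12970 genes, by the Euclidean distance between log2 CPM values centred over the 5 libraries. Nearest to HIF1A were DNM1 (distance 0.104), SPRY1 (0.112), GMDS-DT (0.114) and CPEB3 (0.115), with log2 fold changes of 0.50 to 0.60, of which that of DNM1 was past the threshold. Nearest to EPAS1, the gene with the largest difference of the 8, were KLHL24 (0.172), RGS1 (0.187), SGK1 (0.248) and CREBRF (0.263), with log2 fold changes of 1.49 to 1.69, all past the threshold. KLHL24, for example, stood at 106.5, 96.2 and 92.6 CPM in brain, against 38.7 and 28.5 CPM in spleen. All these genes were picked for their likeness in the same libraries. Fold changes near those of HIF1A and EPAS1 follow from that choice, and neither they nor the calls are a further result. Over all genes tested, 9.51% were called in either direction.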

How the data were processed

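RNA of REH cells from brain (3 libraries) and spleen (2 libraries) was sequenced from a stranded mRNA kit, per the labels' protocols. Tools listed in the submitters' processing notes are kallisto 0.42.4, cutadapt 1.5, bcl2fastq 1.8.4 and DESeq2 (no version), with builds GRCm38 and GRCh38. Per the file headers, the deposited transcript tables hold estimated counts and TPM over human and mouse transcripts together. The whole numbers in the deposited gene table were taken as rounded estimated counts, since their totals differ from the sums of the transcript estimates by -18228 to -13840 counts. The authors also deposited log2-scale (rlog) gene values, which served as an alternative. In each gene table, 1 column matches no sample here and was not used. The kallisto tool shares reads of near-identical sequences out by a model.

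Identifiers were matched to GENCODE 44 (86.4% of identifiers, at least 99.67% of the counts of each library). Gene counts were tested with edgeR 4.0.16 in R 4.3.3 (quasi-likelihood F test, filterByExpr, TMM, origin site as the only term, 3 residual degrees of freedom). Transcript estimates were rounded and tested in the same way. CPM uses TMM-scaled library sizes, TPM was rescaled over human transcripts, and SE are on the log2 scale. On simulated data the gene test recovered 80% of genes changed by 1 and 99% of genes changed by 2 on the log2 scale. In that run, with 200 genes changed, it also made 18 false calls among the unchanged genes. The changed genes and transcripts of the simulations were drawn only from those above a minimum mean count. These recoveries thus do not cover features with low counts. Alternatives used DESeq2 1.42.0 and limma 3.58.1, with pseudocounts of 1 (genes) and 0.1 (transcripts) on TPM. The members and lists were chosen with earlier results of these data known. All 8 members are named, with up to 4 called genes of each list by smallest p, or the most abundant where none passed, overlapping genes past the filter, transcripts with at least 10% of a gene's TPM, and the 4 genes nearest in pattern.

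Replicate numbers mark occasions, per the labels' protocols, and by the sample titles brain and spleen libraries 1 and 2 pair. The spleen columns of the deposited tables carry other numbers than the titles, so this pairing rests on the titles alone. The deviations from the group means of same-numbered libraries correlated over genes at -0.0251 and 0.146, and those of differently numbered libraries at -0.147 to 0.147. With 2 spleen libraries the values of each brain library are equal and opposite, so they cannot decide the pairing. P-values measure the spread between pools of mice from separate occasions. Mouse orthologues of the members were not analysed here.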

Additional observations from a re-analysis of the deposited data

How the results depend on the processing

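Of 7 tested genes, HIF1A, EPAS1, EGLN1, EGLN2 and VHL kept their direction under all 15 alternatives run. The call held in 14 of 15 for EGLN1, 13 for EPAS1 and 10 for HIF1A. With limma on TPM, 0 of the 8 genes were called higher, with log2 fold changes of 0.50 for HIF1A (limma adjusted p = 0.285), 0.43 for EPAS1 (0.193) and 0.91 for EGLN1 (0.0698). The pseudocount of 1 shrinks EPAS1, which is under that value. That fit called 193 genes higher and 63 lower in all. With the mouse share as a covariate, 1 of the 8 was called higher, EGLN1, while HIF1A had 0.70 (edgeR adjusted p = 0.284) and EPAS1 1.77 (0.137), and 114 genes were higher and 11 lower in all. The sites differ in mouse share, and the cause was not tested.

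EGLN2 was called lower with upper-quartile scaling (-0.42), the DESeq2 Wald test (-0.43), no filter on low counts (-0.42) and the 1 CPM filter (-0.42), so that 1 of the 8 genes was lower there. Leaving out 1 library moved the members called higher between 2 and 3, those lower between 0 and 1, and the log2 fold changes between 0.48 and 0.71 for HIF1A, -0.57 and -0.25 for EGLN2, and -0.041 and 0.0032 for HIF1AN. Over all genes the counts went to 515 to 871 higher and 146 to 828 lower, the lowest without brain replicate 1. The lower genes numbered 1276 with the DESeq2 Wald test and 1337 without the filter. Values near 0 changed sign with limma on TPM, to 0.0023 for ARNT and 0.104 for HIF1AN.

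The fit with the replicate block, whose pairing rests on the sample titles and is not borne out by the spleen column names, gave log2 fold changes of 0.70 for HIF1A, 1.75 for EPAS1, 1.08 for EGLN1 and -0.41 for EGLN2 (edgeR adjusted p = 0.0064, 0.0079, 0.0011 and 0.080), and changed no call among the 8. Among single transcripts and genes with no call, leaving out 1 library moved the log2 fold change across 0 for ARNT-202 (-0.33 to 0.16), ARNT-204 (-0.24 to 0.50), ARNT-208 (-0.30 to 0.62), HIF1AN-201 (-0.11 to 0.042), HIF1AN-203 (-0.033 to 0.27), HIF1AN-205 (-0.17 to 1.12), VHL-201 (-0.0019 to 0.13), VHL-203 (-0.043 to 0.16), BMAL2 (-0.10 to 0.080) and RAB4B-EGLN2 (-0.99 to 1.18, with 0.13 by limma on TPM and 2.54 with the mouse share). With 1 spleen library left, that library is assumed to vary like the others. Depth limits EGLN3, and the transcript test had little power. Without the filter on low counts it called 19 transcripts higher, 0 of them from the 8 genes.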

Other observations

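Not every gene known as a hypoxia target was higher in brain. The carbonic anhydrase CA9 gave 7, 14 and 9 counts in brain, against 16 and 12 counts in spleen (log2 fold change -0.42, edgeR adjusted p = 0.639). The lactate dehydrogenase gene LDHA stood at 791.8, 919.6 and 933.3 CPM in brain, against 731.9 and 580.5 CPM in spleen (log2 fold change 0.43, SE 0.133, edgeR adjusted p = 0.0796). The phosphoglycerate kinase gene PGK1 and the enolase gene ENO2 had log2 fold changes of -0.037 and -0.0095 (edgeR adjusted p = 0.900 and 0.977), with overlapping libraries. These are the 4 genes of that list that did not pass.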
